A study of Mus musculus with 16 samples.

Results

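A clonal line grown from 1 sorted cell was compared with the mixed population that the cell was taken from, for 14 clonal lines of immortalised mouse embryonic fibroblasts (MEFs). MEF-1 and MEF-2 are parental lines of sibling C57BL/6J embryos, MEF-1 male and MEF-2 female, made at day E13.5 of gestation and immortalised without an added oncogene, by passaging until cells grew out of crisis. From each parental line 7 single cells were isolated by flow cytometry and expanded to a dish. Clonal and parental cells were harvested at the same confluency, untreated, and total RNA depleted of ribosomal RNA was sequenced with strand kept. Each of the 16 lines has 1 library, so 7 clonal lines stand against 1 parental library in each set. The move of a gene is its value in a clonal line minus its value in the parental line of the same set. The members are the 13282 protein-coding genes on autosomes other than chromosomes 12, 18 and 19 with a mean above 0 over the 16 lines, out of 18862 protein-coding genes on these autosomes and 54453 genes in all. The rule for members uses no measured move, but the members and the gene lists were chosen with earlier results of these data known.

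Fibroblasts are the matrix-making cells of connective tissue, and cultures of embryo fibroblasts start from cells of many body sites. A parental line averages over all cells that grew out of crisis, whereas a clonal line holds the descendants of 1 of them and has passed through a stretch of growth at low cell number. Cell division, sterol synthesis and matrix production are known to vary with growth state in fibroblast culture. In bulk RNA, fewer cells of a type and less RNA per cell cannot be told apart.

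The deposited values are regularised log (rlog) values, that is log2 levels scaled for library size in which lines are drawn towards the mean of a gene, most where it has few reads. A value of 1 on this scale is a doubling at most genes and understates the change of a gene with few reads. The number of reads is unknown. Over the members the clonal lines correlated with their parental line at r = 0.984 to 0.993, the median move lay between -0.02 and 0.03 in every clonal line, and between 583 and 1644 members lay more than 1 from the parental value. The MEF-1 parental line lay more than 1 from the mean of its clonal lines at 887 members. A MEF-1 clonal line did so from the mean of the others at 176 to 541. In MEF-2 the same counts were 472 for the parental line and 154 to 570 for a clonal line. The MEF-1 parental library was the highest of its 8 lines at 2622 members and the lowest at 2804. MEF-2 clone 3 was at an end of its set most often, highest at 3175 and lowest at 2946. All fibroblast markers were members. Col1a1, Col1a2 and Vim, for the main chains of collagen I and the filament protein vimentin, had values between 17.8 and 21.4 in all lines. Each test of a set rests on 1 parental library, which limma assumes to vary like the clonal lines.

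The first question was which genes stood on the same side of the parental line in all 14 clonal lines. Above it stood 923 members (6.95%, against a background of 6.73% of the 15285 protein-coding genes fitted), and below it 650 (4.89%, background 4.85%). All 7 lines of a set share their parental library, so a chance deviation of that library moves all 7. Within MEF-1, 2804 members lay above in 7 of 7 lines (background 20.8%) and 2622 below (background 20.2%). Within MEF-2 the counts were 2420 (background 18.5%) and 2096 (background 15.8%). With the members ranked by level and split into 4 equal groups, 3.25% lay above in 14 of 14 lines in the lowest group, against 9.61% in the next and 6.81% in the highest. For members below in 14 of 14 lines, the shares of the 4 groups ran from 3.58% to 5.63%.

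Fitted with limma across all 15285 genes, with the set as a term and Benjamini-Hochberg adjustment, 28 members changed in common. Of these 10 were higher in the clonal lines (background 0.072%) and 18 lower (background 0.131%), and in each of the 28 all 14 lines lay on the called side. At an unadjusted p under 0.05, 2405 members (18.1%) differed, 1278 higher and 1127 lower. By level, 10 of the 28 lay in the lowest of the 4 groups of members, 3 in the next, then 11 and 4. With the mean above the 40th percentile 20 genes were called, all of them among the 28. The count of 28 also rested on single libraries. It was 114 (48 higher, 66 lower) without MEF-2 clone 7, 44 without MEF-2 clone 3, and between 14 and 17 without MEF-2 clone 1, 4 or 6 or MEF-1 clone 3. The plot of the mean moves of the sets shows where the called genes lie.

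**Figure D1:**
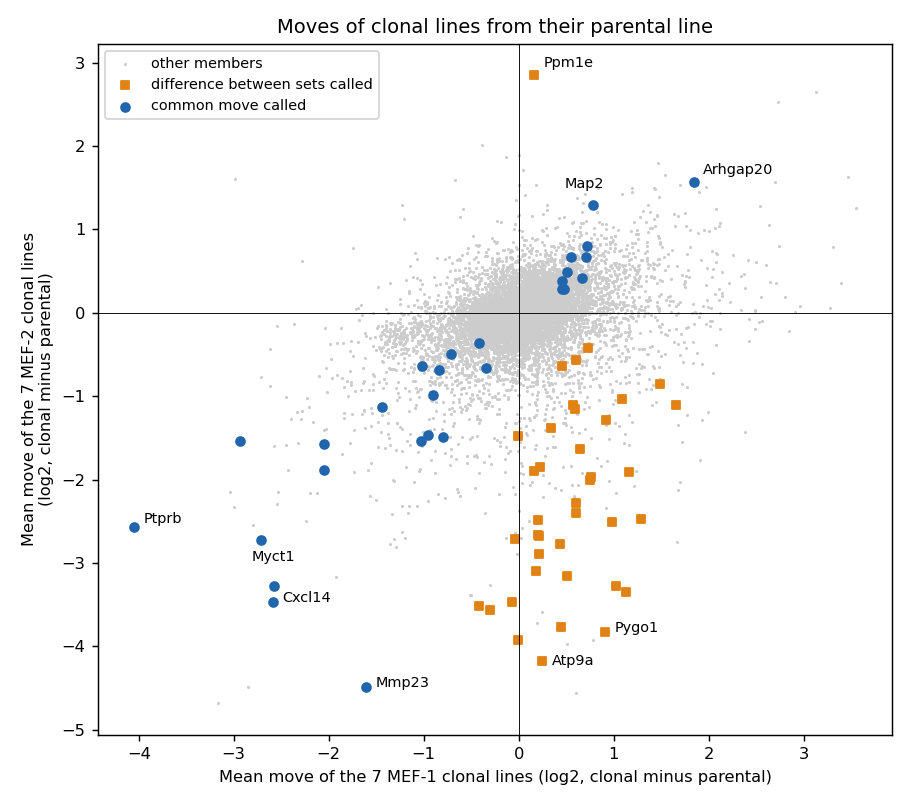
Mean move of the 7 MEF-1 clonal lines (horizontal, log2) against that of the 7 MEF-2 clonal lines (vertical, log2) for the 13282 members, 1 point per gene. Blue points are the 28 members called in the common fit and orange squares the 39 whose move differed between the sets, of which 38 lie below the diagonal.

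The lowest fitted value among these genes belonged to Ptprb, the receptor phosphatase of the vascular endothelium (chr10:116275523-116389535). Its rlog level was 8.39 in the MEF-1 parental line and 3.90, 4.16 and 5.03 (lowest, median, highest) in the 7 MEF-1 clonal lines, and 8.23 in the MEF-2 parental line against 4.95, 5.64 and 6.92 in the 7 MEF-2 clonal lines. The highest clonal line of either set therefore stayed below its parental line by over 1 on the log2 scale. The common move was -3.31 (SE 0.42, limma, adjusted p = 0.00377). Myct1, a gene named as a Myc target and enriched in endothelium (chr10:5593775-5606904), stood at 5.50 in the MEF-1 parental line against 2.32, 2.55 and 4.01 in its clonal lines, and at 5.63 in the MEF-2 parental line against 2.30, 2.44 and 4.76. It fell in common by 2.72 (SE 0.50, limma, adjusted p = 0.037), with 1 clonal line in each set apart from the others but still below the parental line. Neither gene was on the list of endothelial markers, and no member of that list passed the common test. In 14 of 14 lines 1 member (6.67%) lay above and 1 (6.67%) below, against 6.95% and 4.89% of all members. The mean move was above 0 for 6 members and below 0 for 9 in each set. Of the 19 endothelial markers checked 15 were members, 3 (Cldn5, Sox17 and Robo4) were listed at exactly 0 in all lines, and Cdh5, the cadherin of endothelial junctions, ran from 0.21 to 0.98, a level near the lower limit for members, with parental values of 0.72 and 0.98. The summed level of the list on the log2 scale was 12.31 in the MEF-1 parental line and 11.81 to 12.99 in its clonal lines, and 12.50 in the MEF-2 parental line and 11.98 to 12.47 in its clonal lines. The part of endothelial cells in these values was not tested beyond the markers given.

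Among the other lower genes, Mmp23, a membrane-anchored matrix metalloproteinase, was at 6.96 in the MEF-1 parental line against 4.89, 5.09 and 5.87 in its clonal lines, and at 9.00 in the MEF-2 parental line against 4.16, 4.47 and 5.31. Both sets lay apart from their parental line, by 1.61 in MEF-1 and 4.48 in MEF-2 on average, and the common move was -3.05 (SE 0.47, limma, adjusted p = 0.0201). Cxcl14, a chemokine, was at 4.63 and 4.76 in the parental lines and at most at 3.78 in a MEF-1 and 1.48 in a MEF-2 clonal line, a common move of -3.03 (SE 0.51, limma, adjusted p = 0.0228). Fxyd6, a small regulator of the sodium pump, was at 11.94 in the MEF-1 parental line against 7.56 to 10.35 in its clonal lines and at 7.85 in the MEF-2 parental line against 4.48 to 4.67. The 7 MEF-2 clonal lines thus lay close together, while the MEF-1 clonal lines were spread, and the common move was -2.93 (SE 0.48, limma, adjusted p = 0.0215).

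Ano3, of the anoctamin family of channels and lipid scramblases, had the lowest adjusted p of the comparison (limma, 1.48e-06). It is a gene of low level, at 2.89 and 2.93 in the parental lines, and in clonal lines at 0.72 to 1.01 for MEF-1 and at 0.75 to 1.32 for MEF-2. The lines of a kind were close to each other and far from the other kind in both sets, with a common move of -1.97 (SE 0.13). The rlog scale draws lines together most in genes with few reads. Whether this narrowed the spread of Ano3, and with it the SE, was not tested. Wnt7b, a secreted Wnt ligand, and Klhl6, a substrate adaptor of cullin 3 ligases, had parental values of 2.48 to 3.40 and fell by 1.21 (SE 0.20, limma, adjusted p = 0.0215) and by 1.28 (SE 0.23, limma, adjusted p = 0.0358).

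Higher levels in the parental lines were seen for 3 genes of transport and uptake. Slc24a2, a sodium/calcium exchanger that also carries potassium, was at 8.57 against 4.87 to 6.36 in MEF-1 and at 4.68 against 2.74 to 4.07 in MEF-2. Slc22a23, an orphan member of the organic ion transporter family, was at 10.46 against 7.95 to 8.93 and at 11.52 against 9.19 to 10.42. Lrp8, an apolipoprotein E and reelin receptor, was at 11.71 against 9.72 to 10.73 and at 11.55 against 9.98 to 10.85. In none of the 3 did a clonal line reach its parental line, and the common moves were -2.24, -1.81 and -1.28 (limma, adjusted p = 0.0358, 0.0215 and 0.037). The other lower genes were Klhdc8a, Arhgap27 (a GTPase-activating protein), Bhlha9 (a limb transcription factor) and Lss. Pgp (the phosphatase of phosphoglycolate), Gclc and Limk2 (a kinase of cofilin) complete the group. Fitted moves of these genes lay between -1.15 and -0.39. Bhlha9 was another gene of low level, at 1.98 and 1.37 in the parental lines.

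The 10 genes that rose in common had fitted moves from 0.37 to 1.71, against -3.31 to -0.39 for the lower genes. Arhgap20, another GTPase-activating protein, was at 8.91 in the MEF-1 parental line against 10.18, 10.88 and 11.27 in its clonal lines, and at 9.38 in the MEF-2 parental line against 9.96, 11.13 and 11.52, a common move of 1.71 (SE 0.33, limma, adjusted p = 0.0449). Map2, a microtubule-associated protein best known from neurons, was at 11.13 against 11.61, 11.80 and 12.33 and at 11.21 against 12.30, 12.54 and 12.81, a common move of 1.04 (SE 0.16, limma, adjusted p = 0.0204). No clonal line reached down to its parental line in either gene, and the clonal lines of Map2 lay close together within each set. Selenow, for the small selenoprotein W, rose by 0.76 (SE 0.10, limma, adjusted p = 0.00377), from 11.96 to between 12.52 and 12.90 in MEF-1 and from 12.07 to between 12.67 and 13.03 in MEF-2. Bcl2l11, the BH3-only protein Bim that promotes apoptosis, rose by 0.69 (SE 0.13, limma, adjusted p = 0.037). Of the remaining 6, Acadm (a dehydrogenase of fatty acid oxidation, 0.55), Pfkm (phosphofructokinase of muscle type, 0.42) and Surf1 (an assembly factor of cytochrome c oxidase, 0.38) belong to energy metabolism, and Zmynd8 (a reader of histone acetylation, 0.50), Zfp62 (a zinc finger protein, 0.37) and Ccdc136 (0.61) complete the group on the same fitted log2 scale. For comparison, Kalrn, the member closest to the median of the absolute common move, had a move of 0.16 (SE 0.23, limma, adjusted p = 0.729), and its MEF-1 clonal lines lay on both sides of the parental line.

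Of the gene lists examined, sterol and fatty acid synthesis had the highest share of members below the parental line in all clonal lines. Cells make cholesterol from acetyl-CoA through the mevalonate pathway, and the transcription factor SREBP2 (gene Srebf2) drives the enzymes of this pathway when membrane cholesterol is low. SREBP1 (Srebf1) does the same for fatty acid synthesis, whereas the exporter Abca1 is induced when sterols are plentiful. Of the 36 genes of the list 31 were members, and 20 of these (64.5%) lay below the parental line in 14 of 14 clonal lines, against 650 of the 13282 members (4.89%). One member, Abca1, lay above in 14 of 14. The median move of the list was -0.57 in MEF-1 and -0.48 in MEF-2, against 0.02 and 0.00 over all members, and its median lay below 0 in each of the 14 clonal lines, from -0.81 to -0.41 in MEF-1 and from -0.74 to -0.26 in MEF-2. Only 1 of the 31 changed at the adjusted threshold, while 23 were lower at an unadjusted p under 0.05. That 1 gene was Lss, lanosterol synthase, which closes the sterol ring system. Its level was 12.71 in the MEF-1 parental line against 11.46, 11.89 and 12.19 in its clonal lines. In MEF-2 it was 12.86 against 11.88, 12.19 and 12.41. Every clonal line thus lay below the 1 parental library of its set, and the common move was -0.76 (SE 0.14, limma, adjusted p = 0.037). The count of called members was 0 without MEF-1 clone 3 or 7 or without MEF-2 clone 1, 2, 5 or 6, 2 without MEF-2 clone 3 and 3 without MEF-2 clone 7.

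At the head of the pathway, Hmgcs1 (HMG-CoA synthase) was at 14.64 against 12.96, 13.91 and 14.18 in MEF-1 and at 14.74 against 13.54, 14.33 and 14.42 in MEF-2, a move of -0.73 (SE 0.25, limma, adjusted p = 0.167). All 14 clonal lines lay below the parental line. Of the mevalonate and isoprenoid enzymes, Mvk was at 11.43 against 10.72 to 11.14 and at 11.53 against 10.77 to 11.27, and Idi1, the isomerase of isopentenyl diphosphate, at 12.95 against 10.85 to 12.25 and at 12.96 against 11.70 to 12.56. Fdps, farnesyl diphosphate synthase, had a common move of -0.95 (SE 0.29, limma, adjusted p = 0.138). Of the sterol enzymes proper, Sqle (squalene epoxidase) was at 13.67 against 12.29 to 13.24 and 13.72 against 12.46 to 13.35, a move of -0.77 (SE 0.22, limma, adjusted p = 0.133). These enzymes stood at nearly the same level in the 2 parental lines, and every one of their clonal lines stood lower.

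Srebf2, the gene of SREBP2 itself, lay below in 14 of 14 lines by less, with a move of -0.38 (SE 0.13, limma, adjusted p = 0.179). The fatty acid synthesis enzymes Fasn and Acly lay below in 14 of 14 lines, with moves of -0.37 and -0.34 (limma, adjusted p = 0.132 and 0.146), and Srebf1 did so in MEF-2 and not in MEF-1 (limma, adjusted p of the common move 0.358). Abca1 was at 9.91 in the MEF-1 parental line against 10.71, 11.08 and 12.20, and at 9.14 in the MEF-2 parental line against 9.73, 10.16 and 10.95, a move of 1.31 (SE 0.35, limma, adjusted p = 0.11). The other sterol-induced genes of the list, Abcg1 and Mylip, had moves of 0.04 and 0.38 (limma, adjusted p = 0.955 and 0.559), with lines on both sides.

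**Figure D2:**
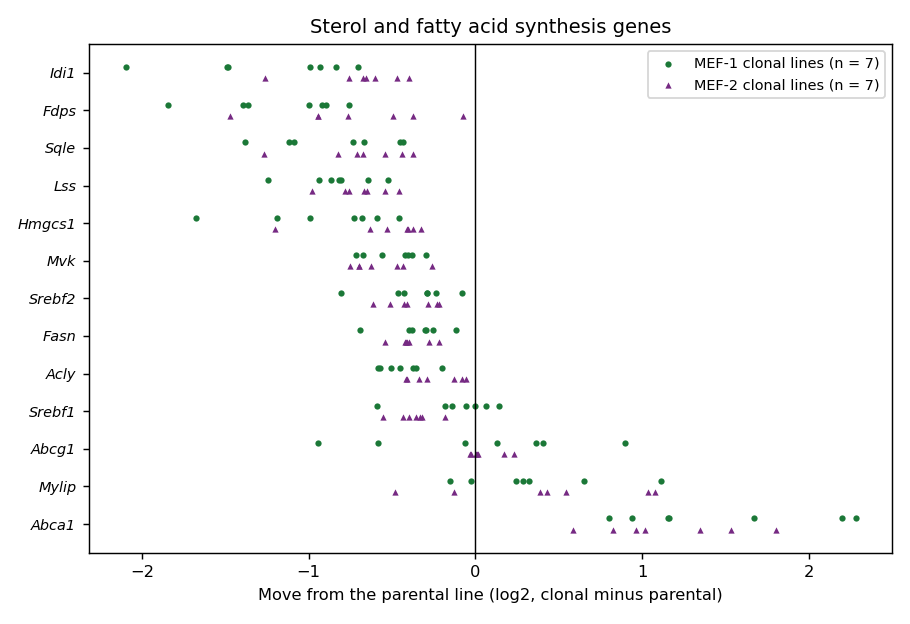
Move of each clonal line from its parental line (log2, clonal minus parental) for the 13 members of the sterol and fatty acid synthesis list named in the text, ordered by the common move; circles are the 7 MEF-1 and triangles the 7 MEF-2 clonal lines. All 14 points lie left of 0 for 9 of these genes, and all 14 lie right of 0 for Abca1 alone.

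Promoters of the list were searched for the core of a sterol regulatory element, the sequence bound by SREBP, written TCACNCCAC and taken on either strand within the 250 bases before the start in RefSeq (GRCm38.p6). It was found in 1 of 23 members of the list with a promoter sequence (4.35%), against 1.22% of all 27025 promoters. That 1 was Hmgcs1, shown because it is the entry enzyme of the pathway, at chr13:119690188-119690248 on the plus strand, with the match in capitals 137 bases before the start.
Hmgcs1: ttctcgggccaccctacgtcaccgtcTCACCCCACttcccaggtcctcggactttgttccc
A window without these letters says nothing about binding, and no binding was measured here.

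Other groups had few or no called members. Nrf2 targets are the antioxidant genes switched on by the transcription factor Nrf2. Of their 30 members 5 (16.7%) lay below in 14 of 14 lines, against 4.89% of all members, and 1 (3.33%) above, against 6.95%. The list median was below 0 in all MEF-1 lines and in all MEF-2 lines but clone 7, where it was 0.06, and the median move of the members was -0.21 for MEF-1 and -0.26 for MEF-2. Gclc, the catalytic subunit of the first enzyme of glutathione synthesis, fell in common by 0.51 (SE 0.08, limma, adjusted p = 0.0216), from 11.30 to between 10.84 and 11.16 in MEF-1 and from 11.44 to between 10.67 and 10.86 in MEF-2. Its partner subunit Gclm was at 12.02 against 11.48 to 11.89 and at 11.70 against 11.05 to 11.34 (limma, adjusted p = 0.0736), and Hmox1 (haem oxygenase) and Me1 (malic enzyme), also below in 14 of 14, had moves of -0.52 and -0.68 (limma, adjusted p = 0.14 and 0.127). Nqo1, a quinone reductase and common marker of Nrf2 activity, lay below in all MEF-1 lines, at 10.00 against 8.68 to 9.46, but its highest MEF-2 line was above the parental line.

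Genes of ribosome biogenesis, the nucleolar factors that build ribosomes and that Myc is known to raise, had 36 members, 13 of them (36.1%, against 4.89% of all members) below in 14 of 14 lines and 0 above. None changed at the adjusted threshold (limma), and 14 were lower at an unadjusted p under 0.05. The list medians were below 0 in all 14 lines, -0.71 to -0.14 in MEF-1 and -0.32 to -0.03 in MEF-2. Utp20, a factor of the small subunit, was at 13.41 against 12.54 to 12.99 and at 13.38 against 12.81 to 13.26, while Myc had clonal lines on both sides in both sets (common move 0.10, SE 0.27, limma, adjusted p = 0.87). Of the structural proteins of the ribosome 6 of 72 (8.33%) lay above in 14 of 14 lines, near the 6.95% of all members, and 0 below. The mean move was above 0 for 57 of the 72 in MEF-1 and 69 in MEF-2, against 7051 and 6725 of the 13282 members. Rpl22 was at 14.21 against 14.54 to 14.68 and at 14.06 against 14.18 to 14.44 (limma, adjusted p = 0.0573).

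Interferon-stimulated genes, the antiviral response genes switched on by interferon signalling, leaned the other way. All 32 members had a mean move above 0 in MEF-1 and 25 in MEF-2, against 7051 and 6725 of the 13282 members. Above in 14 of 14 lines were 5 (15.6%, against 6.95% of all members), namely Parp9, Parp12, Dtx3l, Ddx58 and Irf1, and 0 lay below. None changed at the adjusted threshold (limma), and 7 were higher at an unadjusted p under 0.05. The list medians were above 0 in all 14 lines, from 0.05 to 1.02 in MEF-1 and from 0.17 to 0.48 in MEF-2. Moves were small in the genes above in every line, such as Irf1, a transcription factor of the response, at 10.63 against 10.80 to 11.34 and at 10.80 against 10.88 to 11.34. Wider moves came with a wider spread, as in Oasl2, an antiviral sensor of the oligoadenylate synthetase family, at 5.79 against 5.57 to 8.02 and at 4.92 against 4.67 to 7.07. Of 17 genes of MHC class I presentation, the display of peptides to T cells, 3 (17.6%) lay above in 14 of 14 lines and 0 below, with list medians on both sides of 0 in MEF-2, among them Psmb9, a subunit of the immunoproteasome, at 5.39 against 5.79 to 7.19 and at 5.36 against 5.55 to 7.18 (limma, adjusted p = 0.231).

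Interferon-stimulated response elements, the motif of STAT2 and IRF9, were looked for in the same way as 2 copies of GAAA with 2 bases of any kind between them. They were present in 10 of 23 members with a promoter (43.5%), against 3.46% of all promoters. The promoter of Gbp7, a guanylate-binding GTPase at 7.17 against 7.76 to 9.07 in MEF-1 and 7.51 against 7.16 to 8.95 in MEF-2, is shown because the gene has one of the wider moves of the list, with the match, here on the opposite strand, in capitals (chr3:142530257-142530317, plus strand, 53 bases before the start).
Gbp7: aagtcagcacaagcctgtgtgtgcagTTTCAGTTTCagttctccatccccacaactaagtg

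The next question was which genes moved in the clonal lines of 1 set. In MEF-1, 15 members changed by the limma contrast of the fit of 4 groups, 7 higher (background 0.0589%) and 8 lower (background 0.0785%), and 2186 differed at an unadjusted p under 0.05. Without MEF-1 clone 5 the count was 258 (76 higher, 182 lower), without MEF-2 clone 3 it was 41 and without MEF-1 clone 4 it was 34, and it was 4 to 9 without MEF-1 clone 3 or 7 or MEF-2 clone 1, 2, 4 or 5. Of the genes called in this contrast and not in common, Lama2 encodes the laminin alpha2 chain of basement membranes. It was at 9.89 in the MEF-1 parental line against 7.13, 7.19 and 7.53 in its clonal lines and at 12.99 against 12.14, 12.33 and 13.10 in MEF-2, moves of -2.62 (SE 0.31, limma, adjusted p = 0.00374) and -0.43 (adjusted p = 0.84). The difference between the moves was 2.19 (SE 0.44, limma, adjusted p = 0.0581) and did not pass the threshold. Osr2, a zinc finger factor of limb and palate, was at 6.92 against 8.86, 9.50 and 10.18 in MEF-1 and at 4.38 against 4.28, 4.59 and 5.10 in MEF-2, a MEF-1 move of 2.56 (SE 0.41, limma, adjusted p = 0.0303) and a difference between the sets of -2.36 (adjusted p = 0.157). Wnt5a, a non-canonical Wnt ligand made by mesenchyme, rose in MEF-1 by 1.26 (SE 0.21, limma, adjusted p = 0.0358), and its 7 MEF-2 lines also lay above the parental line (0.50, adjusted p = 0.565). By limma, 0 members passed both the test in MEF-1 and the test of the difference, against 809 with a difference between the sets at an unadjusted p under 0.05, so that no gene was called as moved in MEF-1 alone.

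Mitosis genes, which are made in the second part of the cell cycle and fall when fewer cells divide, were the most uniform list of the MEF-1 set. Of 30 genes 28 were members, and 28 of 28 lay below the parental line in 7 of 7 MEF-1 clonal lines, against 1 of 28 in 7 of 7 MEF-2 lines. Over all members these shares were 19.7% and 15.8%. The mean move was below 0 in MEF-2 too for 28 of 28, and 24 were lower in the common fit at an unadjusted p under 0.05, with 0 called (limma). The median move was -1.25 in MEF-1 and -0.24 in MEF-2. None changed at the adjusted threshold in MEF-1 (limma, lowest adjusted p = 0.111), although 28 of 28 were lower at an unadjusted p under 0.05, and for the difference between the sets 0 were called and 1 (Nuf2) passed unadjusted. The MEF-1 medians ran from -2.03 in clone 1 to -0.24 in clone 5. Without clone 5, 16 of the 28 were called lower in MEF-1 (limma), against 182 of the 13282 members. Without any other single clonal line 0 of the 28 were called. The MEF-2 medians ran from -0.68 in clone 6 to 0.10 in clone 7. The ranges of the sets thus overlapped through MEF-1 clone 5, and the parental lines had like levels.

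Cdk1, the kinase that starts mitosis, was at 12.44 in the MEF-1 parental line against 11.06, 11.43 and 12.18 in its clonal lines, and at 12.19 in the MEF-2 parental line against 11.52, 12.08 and 12.24. Mki67, the marker of cycling cells Ki-67, was at 14.36 against 12.32, 13.11 and 14.28, and at 14.56 against 13.94, 14.39 and 14.58. In both genes every MEF-1 clonal line was below its parental line, and so were the MEF-2 clonal lines except clone 7. The adjusted p of the MEF-1 move was 0.161 for Cdk1 and 0.201 for Mki67, whose move was -1.23 (SE 0.47, limma). Anln (anillin of the cleavage furrow), Ccna2 (cyclin A2) and Cdc20 (an activator of the anaphase-promoting complex) had the lowest common moves of the list, -0.95, -0.86 and -0.87 (limma, adjusted p = 0.169, 0.21 and 0.199). Nuf2, of the kinetochore, had a MEF-1 move of -1.40 and a MEF-2 move of -0.15 (limma, adjusted p = 0.111 and 0.979).

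**Figure D3:**
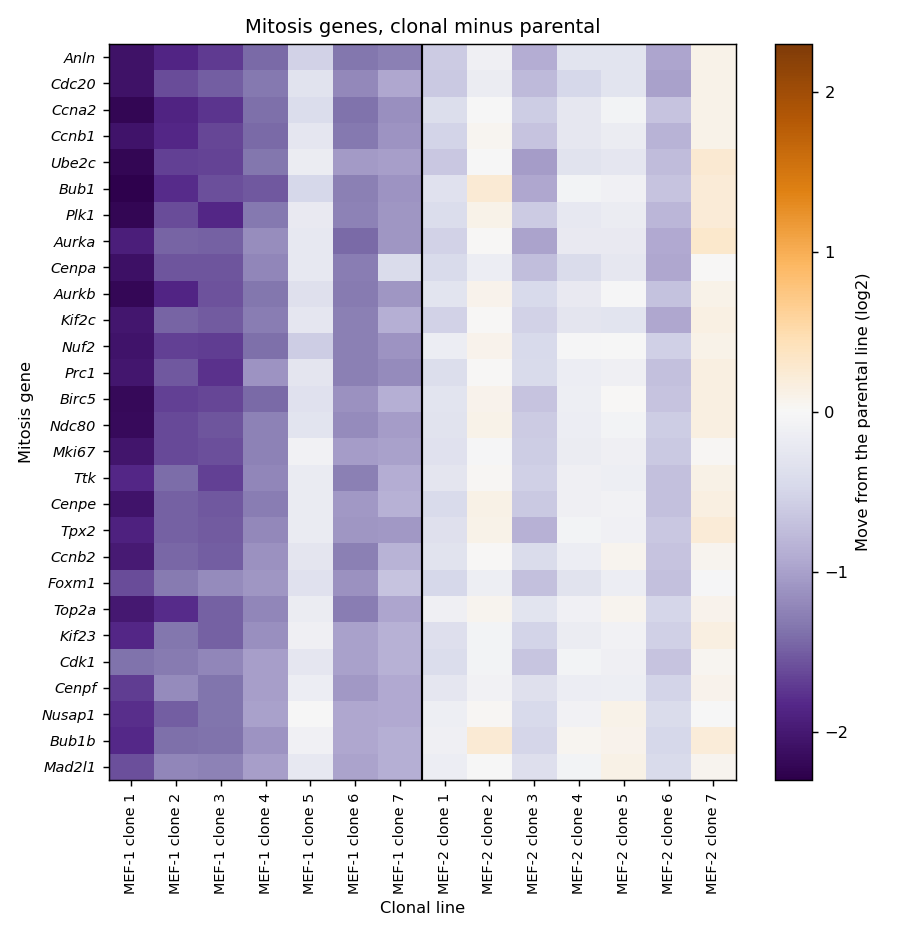
Move from the parental line (log2, colour; purple below and orange above) for the 28 mitosis members (rows) in the 14 clonal lines (columns, MEF-1 left and MEF-2 right of the line). All 28 rows lie below 0 across the 7 MEF-1 lines, palest in MEF-1 clone 5, while MEF-2 lines hold values on both sides of 0.

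The cell cycle homology region, written TTTGAA, is the promoter motif through which mitosis genes are repressed outside their phase. It was found on either strand in the 250 bases before the start of 8 of 24 mitosis members with a promoter sequence (33.3%), against 18.3% of all promoters and 12.7% of those of members. The windows of Cdk1 (chr10:69352949-69353009, minus strand, 71 bases before the start), Mki67 (chr7:135716461-135716521, minus strand, 116 bases) and Prc1 (chr7:80294415-80294475, plus strand, 30 bases), a microtubule bundler of the spindle midzone, are shown as examples from this list, with the match in capitals. Cdk1 holds another match 15 bases before the start, and the Mki67 window another in lower case. The 3 motifs were searched separately, and overlap between their matches was not counted.
Cdk1: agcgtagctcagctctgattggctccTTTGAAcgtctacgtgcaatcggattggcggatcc
Mki67: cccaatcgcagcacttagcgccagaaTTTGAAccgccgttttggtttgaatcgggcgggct
Prc1: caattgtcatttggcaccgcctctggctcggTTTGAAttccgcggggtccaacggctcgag
Prc1 was at 12.83 in the MEF-1 parental line against 10.80 to 12.56 in its clonal lines, and at 12.68 in the MEF-2 parental line against 11.97 to 12.83.

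Genes of DNA replication also lay low in MEF-1, with 26 of 35 below in 7 of 7 lines (19.7% over all members) and 0 above, against 2 below and 3 above in MEF-2 (15.8% and 18.2% over all members), and median moves of -0.59 and -0.06. None passed the adjusted threshold in MEF-1 and 26 were lower unadjusted (limma). Without MEF-1 clone 5, 10 of the 35 were called lower, and without any other single clonal line 0 were. Cdc6, which loads the replicative helicase, was at 10.12 against 8.16, 8.83 and 9.55 in MEF-1 and at 10.06 against 9.36, 10.01 and 10.27 in MEF-2. Of 61 replication-dependent histone genes 31 lay below in 7 of 7 MEF-1 lines, 19 in 7 of 7 MEF-2 lines and 10 in all 14 (16.4%, against 4.89% of all members), with medians of -0.89 and -0.32. Histone genes are near-identical copies among which reads may be split, so single histone genes are uncertain, and their mRNAs lack the poly(A) tail of other mRNAs but are kept in rRNA-depleted libraries.

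Cdkn1a, the p21 inhibitor of cyclin-dependent kinases and main target of p53, also lay below in MEF-1. It was at 11.63 in the MEF-1 parental line against 8.66, 9.57 and 10.41 in its clonal lines and at 12.38 in the MEF-2 parental line against 11.58, 12.20 and 12.73. All 7 MEF-1 clonal lines lay below their 1 parental library, while the MEF-2 clonal lines lay on both sides of theirs. The moves were -2.04 (SE 0.46, limma) and -0.18, with a difference of 1.86. Neither move passed the adjusted threshold, and the difference did not pass it either. Of the 25 members of the p53 and Ink4 list 12 lay below and 5 above in 7 of 7 MEF-1 lines, against 2 and 3 in MEF-2. Over all members 19.7% lay below and 21.1% above in MEF-1, and 15.8% and 18.2% in MEF-2, so that the count below in MEF-1 alone stood over the share of all members. Bax, a pro-apoptotic p53 target, was below in 7 of 7 MEF-1 lines at 12.15 against 11.28 to 11.71, whereas Cdkn2a and Cdkn2b, the inhibitors of the Ink4 locus that immortalised cells often lose, were present and above in 7 of 7 MEF-1 lines, at 12.92 against 13.14 to 13.70 and at 10.73 against 11.11 to 11.65. Without MEF-1 clone 5, 2 members of this list fell in MEF-1 (limma), without MEF-1 clone 4 it was 1, and without any other single clonal line 0.

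In MEF-2 the calls were mostly of lower genes. By the limma contrast 80 members changed in MEF-2, 4 higher (background 0.0262%) and 76 lower (background 0.556%), and 1064 differed at an unadjusted p under 0.05, 469 higher and 595 lower. All 76 lay below in 7 of 7 MEF-2 lines. The median level of the 76 was 8.90 in the MEF-2 parental line and 5.96 in its clonal lines, while in MEF-1 it was 9.62 in the parental line and 9.64 in the clonal lines. In 27 of the 76 all 7 MEF-1 lines lay above their parental line, against 21.1% of all members. In 16 of the 76 all 7 lay below, near the 19.7% of all members, and 2 were also called in MEF-1. The move differed between the sets in 39 members (limma contrast of the moves), lower in MEF-2 for 38 (background 0.262%) and higher for 1 (background 0.0131%), and 32 of the 38 are among the 76. Moved in 1 set only, by the contrast of that set, the difference and the sign in the other set together, were 11 members lower in MEF-2 (background 0.0851%) and 1 higher (Ppm1e), and 0 in MEF-1. Without MEF-1 clone 5 the count of such members was 7 in place of 12. Members with all 7 lines of MEF-1 above and all 7 of MEF-2 below numbered 253 (background 1.87%), and the reverse 144 (background 1.39%).

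Atp9a, a phospholipid flippase of endosomes (chr2:168634438-168742409), was at 10.73 in the MEF-1 parental line against 10.51, 10.92 and 11.50 in its clonal lines, and at 9.83 in the MEF-2 parental line against 5.60, 5.65 and 5.76. The 7 MEF-2 clonal lines lay close together and far below all other lines. The MEF-2 move was -4.18 (SE 0.25, limma, adjusted p = 2.04e-07) and differed from that of MEF-1 by -4.43 (SE 0.35, adjusted p = 1.11e-05). Mark1, a kinase of microtubule-associated proteins (chr1:184896789-184999570), had the same pattern, at 10.03, at 9.84, 9.95 and 10.32, at 8.74, and at 4.72, 4.81 and 4.94 in the same order of groups, a MEF-2 move of -3.93 (SE 0.19, limma, adjusted p = 4.24e-08). Pygo1, a coactivator of Wnt signalling (chr9:72925645-72952181), was above the parental line in 7 of 7 MEF-1 lines, at 10.89 against 11.47, 11.72 and 12.19, and below in 7 of 7 MEF-2 lines, at 9.88 against 5.98, 6.04 and 6.17. Its moves differed by -4.74 (SE 0.29, limma, adjusted p = 1.12e-06), the widest difference of any called member.

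Single transcription factors of mesenchyme and blood vessels were among the 76. The list of mesenchymal and limb transcription factors did not move as a block in MEF-2. Of its 45 members 1 was called lower, 23 had a mean move above 0 and 22 below, and the median move was 0.002. In 7 of 7 MEF-2 lines 10 lay below and 5 above, against 15.8% and 18.2% of all members. Msx1, a homeobox factor of limb and jaw mesenchyme, was at 8.53 against 7.96, 8.62 and 9.09 in MEF-1 and at 6.63 against 3.81, 3.92 and 4.02 in MEF-2, a MEF-2 move of -2.71 (SE 0.32, limma, adjusted p = 0.000411). Fli1, an ETS factor of blood and endothelium, was at 6.91 against 6.01, 6.85 and 7.38 and at 6.83 against 3.18, 3.37 and 3.58, a MEF-2 move of -3.47 (SE 0.37, limma, adjusted p = 0.000147). In both genes the MEF-1 clonal lines spread around their parental line and the MEF-2 clonal lines all stood far below theirs. Ebf3, an early B-cell factor family member found in mesenchyme, was above in 7 of 7 MEF-1 lines, at 9.36 against 9.66, 10.08 and 11.04, and below in 7 of 7 MEF-2 lines, at 8.68 against 5.27, 5.44 and 5.60, with a difference of -4.30 (SE 0.57, limma, adjusted p = 0.00186). Hoxb4 was the single one of 21 Hox members called, at 7.09 in the MEF-2 parental line against 4.49 to 6.13 (-2.10, SE 0.41, limma, adjusted p = 0.0314), and its difference between the sets was not called (adjusted p = 0.134).

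Outside the nucleus, Fam19a5 (a secreted chemokine-like protein) was opposite in the sets, at 7.44 against 7.73 to 9.65 in MEF-1 and 7.25 against 3.79 to 3.98 in MEF-2, and Prkar1b (a regulatory subunit of protein kinase A) was at 8.61 against 8.52 to 9.53 and at 8.66 against 5.69 to 6.53. Btbd11, an ankyrin and BTB domain protein, was at 7.98 against 7.88 to 8.32 and at 7.23 against 3.87 to 4.52. Their differences between the sets were -4.48, -3.21 and -3.28 (limma, adjusted p = 0.0056, 0.0069 and 0.000309). Sod3, the extracellular superoxide dismutase, had a high level throughout MEF-1, at 12.69 against 12.71 to 13.31, and was at 10.41 in the MEF-2 parental line against 7.13 to 8.07 in its clonal lines. Wasf3, an actin regulator of the WAVE family, was at 10.92 against 11.15 to 11.57 and at 9.64 against 5.71 to 6.34. In each of these genes the MEF-2 parental line stood between the MEF-2 clonal lines and the MEF-1 parental line, apart from Prkar1b, where the parental lines were level. Ppm1e, a phosphatase of PAK and CaM kinases, went the other way, at 6.49 in the MEF-2 parental line against 9.03, 9.24 and 9.82, with MEF-1 at 6.86 against 6.53, 7.00 and 7.67, a difference of 2.68 (SE 0.51, limma, adjusted p = 0.0411). Sdk2, a cell adhesion molecule with opposite signs in the sets, had a wider difference of -4.48, but with MEF-2 clonal values from 2.71 to 6.68 it did not pass (SE 1.64, limma, adjusted p = 0.545).

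**Figure D4:**
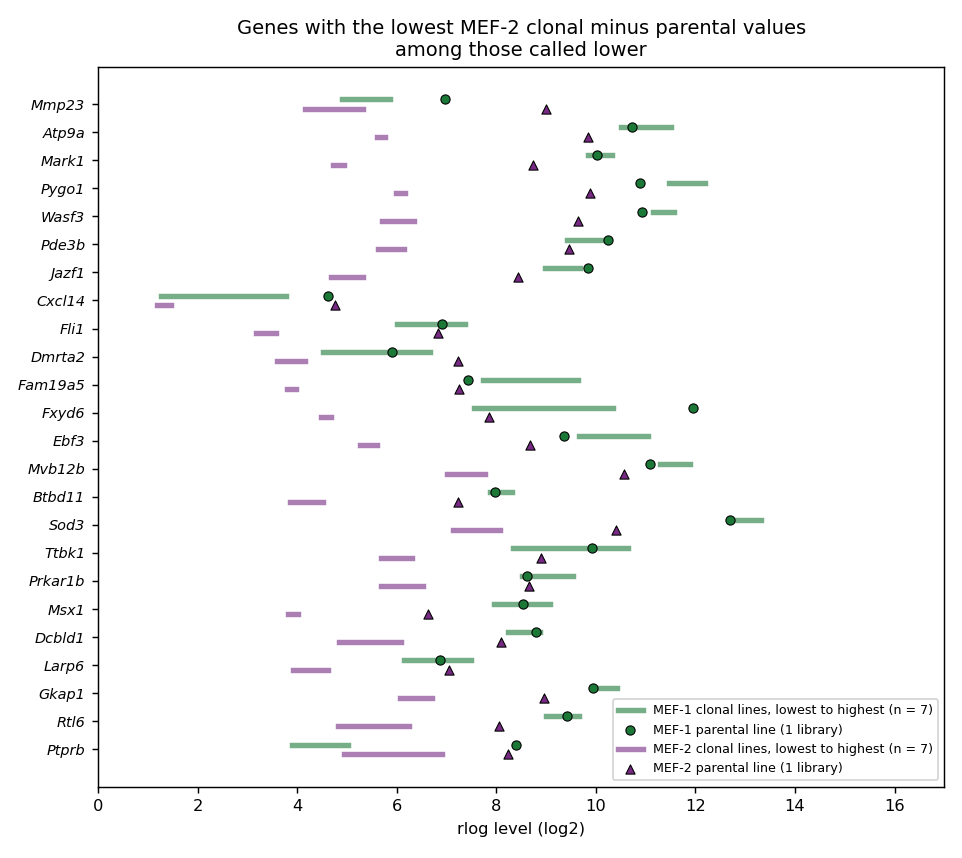
rlog level (log2, horizontal) of the 24 genes with the lowest MEF-2 moves among the 76 called lower; bars run from the lowest to the highest of 7 clonal lines and outlined symbols are the parental lines (green and circles MEF-1, purple and triangles MEF-2). The purple bars lie left of the purple triangle in every row, whereas the green bars overlap the green circle in some rows and lie on either side of it in others.

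A gene without reads in some lines can stand at middle values on this scale. The Y-linked gene Ddx3y was at 12.20 in the MEF-1 parental line and between 5.58 and 5.68 in all 8 MEF-2 lines, which were ordered as in the 2855 genes that have hardly any reads. The MEF-2 parental line stood at 5.62, within its clonal lines, in this gene. Of the 76 lower genes, 1 (Ccdc149) had its MEF-2 clonal lines in that order. The check asks for the exact order of all 7 lines, so it cannot show that the other genes had reads. The MEF-2 clonal lines also lay close together in Atp9a, at 5.60 to 5.76, and in Fam19a5, at 3.79 to 3.98. Whether reads were lacking there was not tested. Where a gene has hardly any reads, the rlog move is no measure of the ratio of reads.

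Fibroblast markers did not move as a block over the 14 lines. The list median was above 0 in all 7 MEF-1 lines, from 0.02 to 0.46. In MEF-2 it was below 0 in 5 lines and above 0 in 2. Of 19 members 3 (15.8%) lay above and 2 (10.5%) below in 14 of 14 lines, against 6.95% and 4.89% of all members. In 7 of 7 MEF-1 lines 10 lay above and 5 below, against 21.1% and 19.7% of all members. Thy1, the surface glycoprotein used to select fibroblasts, was at 6.12 against 2.72, 2.90 and 3.44 in MEF-1 and at 10.22 against 3.42, 5.01 and 8.02 in MEF-2, a common move of -3.93 (SE 0.93, limma, adjusted p = 0.0785) that missed the threshold, with the MEF-2 lines spread widely. Cd34, a sialomucin of progenitor fibroblasts and vessels, was at 9.13 against 7.16 to 8.66 and at 9.63 against 6.59 to 9.25. Above in 14 of 14 lines were Lum (the proteoglycan lumican, move 1.91), Fap (fibroblast activation protein, 0.98) and Col1a2 (0.29), with adjusted p of 0.206, 0.268 and 0.561 (limma). Dcn, decorin, was at 8.07 against 9.63, 11.14 and 12.24 in MEF-1 and at 6.21 against 5.77, 6.19 and 7.24 in MEF-2, with no test of it past the threshold (MEF-1 move, limma, adjusted p = 0.0956).

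**Figure D5:**
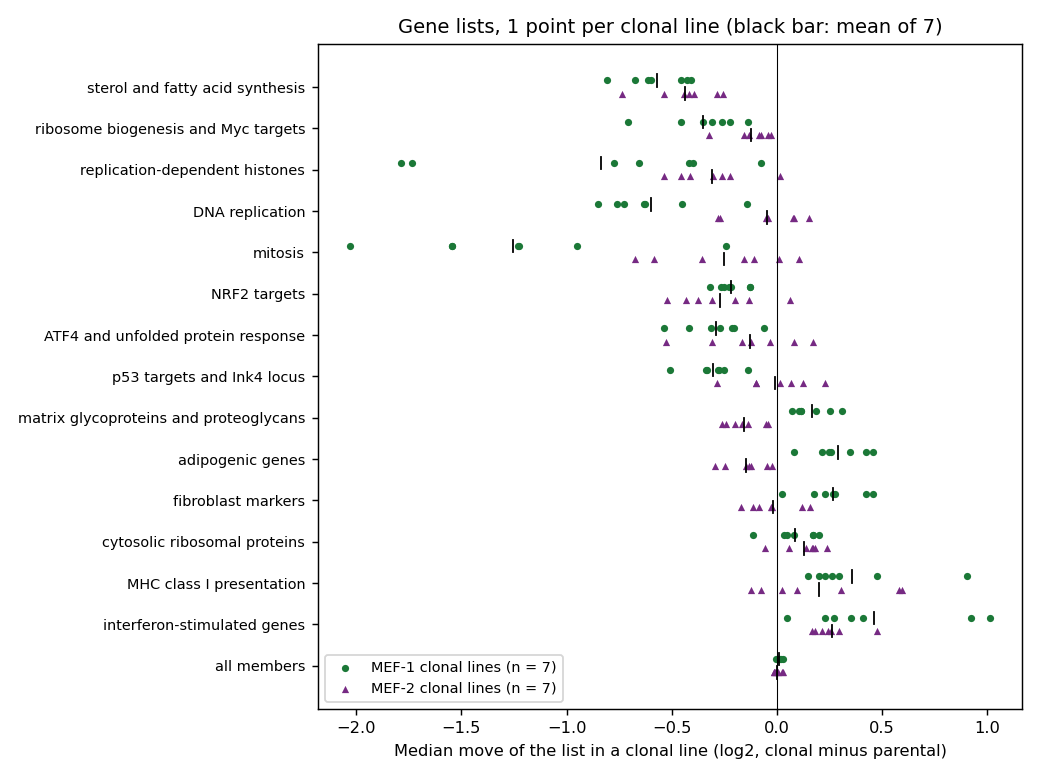
Median move of 14 gene lists and of all members (rows) in each clonal line (log2, clonal minus parental); circles are the 7 MEF-1 and triangles the 7 MEF-2 lines, and the black bar is the mean of 7. The sterol list lies left of 0 in all 14 lines and the interferon list right of 0, while all members lie within 0.03 of 0.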

How the data were processed

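Total RNA of 16 lines was analysed from the deposited rlog (log2) values, which the authors made with DESeq2 1.24.0 from Salmon 1.5.2 quantification on mm10 after Trim Galore 0.6.0 (versions from the submitters' processing notes). Libraries were directional, and RNA was fragmented for a time set by its integrity, which the labels do not give per line. How transcripts were joined into genes is not given in the sources used here. Genes were matched to GENCODE vM21.

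Moves were fitted with limma 3.58.1 in R 4.3.3 (trended prior) on 15285 protein-coding genes with a mean above 0, as clonal against parental with set as a term, and as 4 groups for contrasts per set and their difference. Calls are Benjamini-Hochberg adjusted p-values under 0.05. The fit was tested on simulated data in which parental values had the spread of the clonal lines. That test therefore cannot show whether the real parental libraries vary like the clonal lines. As the files hold no counts, depth is unknown and no interval from counting is given. Replicates are lines from separate cells of 1 culture, with 1 library each.

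The members, the gene lists and the tests were chosen with earlier results of these data known. The rule for named genes took those called in common (12 each way by the smaller set mean), those moved in 1 set only (6 each way), the 4 with the largest difference of opposite sign, up to 3 per list by absolute common move, cell type markers and the member nearest the median move. Other genes of these calls and lists (such as Lss, Gclc, Cdk1, Wasf3, Sod3 and Ccdc149) were named after their values were seen. Some genes of the lists enter the counts but are not reported here by name. Alternatives were the filter, centring, chromosome medians, the prior, a least size of 0.5, a replicate block, the linear scale for clonal means and leaving out each clonal line.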

Additional observations from a re-analysis of the deposited data

Results flagged for a closer look

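Within the 7 clonal lines of a set, a single line stood apart from the rest by a gap test in 7 of 80 groups checked, and chance flags about 1 in 20 groups. Acadm was highest in MEF-2 clone 3 at 12.46, Mmp23 in the same line at 5.31, Wnt7b in MEF-2 clone 5 at 2.43 and Prkar1b in MEF-2 clone 7 at 6.53. Myct1 was apart in both sets, at 4.01 in MEF-1 clone 6 and at 4.76 in MEF-2 clone 7. The median move of the interferon-stimulated genes in MEF-2 was highest in clone 3, at 0.48.

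The moves of the sets differed in 10 of the genes that the naming rule took from the calls, by the limma contrast given in the report. MEF-2 minus MEF-1 was 2.68 for Ppm1e, -4.74 for Pygo1, -4.48 for Fam19a5, -4.43 for Atp9a, -4.30 for Ebf3, -3.92 for Mark1, -3.39 for Fli1, -3.28 for Btbd11, -3.21 for Prkar1b and -2.67 for Msx1. Wasf3, Sod3 and Ccdc149, named after their values were seen, also differed by this contrast, at -4.21, -3.11 and -2.06. For 3 lists every MEF-1 line had a median above 0 and every MEF-2 line one below 0, and this difference was not tested. For adipogenic genes the medians averaged 0.29 over the MEF-1 lines and -0.14 over the MEF-2 lines. The same averages were 0.14 and -0.12 for growth factors and receptor tyrosine kinases, and 0.16 and -0.16 for matrix glycoproteins and proteoglycans.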

How the results depend on the processing

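Under the alternatives, the sign counts in 14 of 14 lines were 266 higher and 280 lower with a least size of 0.5 on the log2 scale. Without a filter on low values, MEF-1 had 99 calls, MEF-2 130, the difference between the sets 77 and genes moved in 1 set only 30, and with the mean above the 40th percentile MEF-1 had 7. With the clone number as a replicate block, the calls were 3 in common, 5 in MEF-1, 49 in MEF-2, 17 for the difference and 4 in 1 set only. The numbers are only shared labels: same-numbered lines correlated at r = -0.139 to 0.204 in their deviations, and number 5 alone correlated best with its own number. The cause of these shifts was not tested. Centring, chromosome medians and the untrended prior kept all of these counts within 1.5 times.

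Leaving out 1 clonal line at a time gave 14 to 114 calls in common, 4 to 258 in MEF-1, 63 to 84 in MEF-2, 29 to 51 for the difference and 7 to 14 in 1 set only. The sign counts were 941 to 1165 higher and 658 to 958 lower. With 1 line fewer to agree, these counts and the list counts that follow can only stay or rise. Members below in every line numbered 20 to 22 for sterol synthesis and 13 to 17 for ribosome biogenesis. Those above in every line numbered 5 to 8 for interferon-stimulated genes. In MEF-1, 28 mitosis members, 26 to 30 replication members and 31 to 43 histone members lay below in every line. Abcg1, with a common move near 0, ran from -0.029 without MEF-1 clone 1 to 0.123 without MEF-1 clone 6. No parental library could be left out, as each set has 1, and depth is unknown.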
